A study of Mus musculus with 43 samples.

Results

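The genes described here are 10 components of the basement membrane: the type IV collagen chains Col4a1 and Col4a2, the laminin chains Lama2, Lama4, Lama5, Lamb1, Lamb2 and Lamc1, and the linking proteins Nid1 (nidogen) and Hspg2 (perlecan). They were chosen by name and found by gene identifier, and they are 10 of the 57010 genes in the deposited count table. All 10 passed the filter on low counts in every model, and none had fewer than 214 counts in any library.

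Bulk RNA-seq was made from 43 libraries of mouse heart in 14 groups, from wild-type mice and from mice labelled Q150X. Q150X is a stop-gained allele of Vegfa, the vascular endothelial growth factor A gene, made by CRISPR/Cas9 editing after a human variant, and the library titles mark these mice ho. Whole hearts at homeostasis (uninjured) gave 3 libraries of each genotype, hearts at day 7 after myocardial infarction (MI) gave 4 of each, and hearts at day 30 gave 3 wild-type and 4 Q150X libraries. Endothelial cells gave 3 libraries of each genotype at homeostasis and 2 of each at day 3 after MI, and cardiomyocytes gave 3 of each genotype at both times. Strain, age and sex, the way the cells were isolated, and whether each library came from a different mouse are not stated in the labels. Every p-value below thus judges a difference against the spread between libraries, which may be partly technical. That spread was estimated over all groups of a fit and not only the groups compared. The allele is described as an edit of the mouse genome, with no promoter or Cre that would limit it to a cell type.

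Basement membranes are thin sheets of matrix on which endothelial cells rest and which wrap each cardiomyocyte, smooth muscle cell and pericyte. Laminins are trimers of an alpha, a beta and a gamma chain that assemble on receptors such as integrins and dystroglycan, and type IV collagen forms a second network that nidogen and perlecan tie to the laminin sheet. In the heart the alpha chain differs by cell: laminins with the alpha chain of Lama2 are typical of muscle fibres, where its loss causes a muscular dystrophy, while those with the chains of Lama4 and Lama5 are typical of vessel walls.

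Col4a1 and Col4a2 encode the chains that join into the common type IV collagen trimer, and they lie head to head on chromosome 8, on opposite strands. Their promoter windows are shown because the levels of both genes are compared in every library below, and because the windows overlap. The windows are from RefSeq on GRCm38.p6, run from 250 bases before to 50 bases after each start site, and are written 5′ to 3′ on the strand of the gene. The Col4a1 window is chr8:11312777-11313076 on the minus strand, the Col4a2 window is chr8:11312555-11312854 on the plus strand, and the capitals mark the 78 bases that both windows hold, read from opposite strands.
Col4a1: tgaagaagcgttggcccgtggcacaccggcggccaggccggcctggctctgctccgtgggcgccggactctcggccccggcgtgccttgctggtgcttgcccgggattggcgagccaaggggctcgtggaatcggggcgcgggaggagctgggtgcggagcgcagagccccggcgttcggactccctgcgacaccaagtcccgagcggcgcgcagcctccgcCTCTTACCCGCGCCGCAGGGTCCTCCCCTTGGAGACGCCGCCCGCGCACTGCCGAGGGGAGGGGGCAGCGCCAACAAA
Col4a2: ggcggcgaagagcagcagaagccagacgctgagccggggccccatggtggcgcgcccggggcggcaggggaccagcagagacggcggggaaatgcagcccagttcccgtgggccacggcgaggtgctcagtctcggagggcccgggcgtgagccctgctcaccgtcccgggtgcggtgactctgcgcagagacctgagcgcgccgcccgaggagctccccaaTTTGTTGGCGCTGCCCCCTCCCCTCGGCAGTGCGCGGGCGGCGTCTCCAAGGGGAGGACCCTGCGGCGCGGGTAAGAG
The annotated first exons overlap by 22 bases, so reads there cannot be given to either gene unless the counting used strand, which is not stated. Of the 8 genes with a window in that table (Lama4 and Lamc1 had none), 7 held the GC box GGGCGG on either strand, all but Lamb2, against 35.66% of all 32851 windows of this length. The 1 match of Col4a1 lies in the 78 bases shared with the Col4a2 window, so the same letters count for both genes. The CCAAT box, CCAAT, was in the windows of Col4a1, Col4a2, Lamb1 and Nid1, against 37.41% of all windows. The TATA box TATAAA was in none of the 8 (13.62% of all windows), and neither was the AP-1 site TGANTCA (7.808%). A match is a description of these letters and not a binding site.

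The other genes lie apart from one another: on GRCm38, Lama2 at chr10:26980036-27619758, Lama4 at chr10:38965515-39110188, Lama5 at chr2:180176373-180225859, Lamb1 at chr12:31265234-31329644, Lamb2 at chr9:108479736-108490530, Lamc1 at chr1:153218922-153332786, Nid1 at chr13:13437551-13512269 and Hspg2 at chr4:137468769-137570630. Antisense genes share 631 exon bases with Lama2, 143 with Nid1 and 43 with Col4a2.

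Libraries held 25035490 to 45243608 counts. The cell labels were checked against 8 marker genes each for endothelial cells and cardiomyocytes. The mural sums below hold 7 genes and the atrial sums 5. Summed endothelial markers stood at 6907 to 8251 CPM (counts scaled to a common library size) in uninjured endothelial libraries, 614 to 1170 in uninjured hearts and 149 to 531 in uninjured cardiomyocytes. Summed cardiomyocyte markers stood at 71398 to 85946 CPM in uninjured cardiomyocytes and at 344 to 559 in uninjured endothelial cells. Markers of mural cells, without the muscle gene Des, summed to 2670 to 3782 CPM in uninjured endothelial libraries. They summed to 891 to 1344 CPM in uninjured hearts and to 562 to 1046 CPM in uninjured cardiomyocytes. The cardiomyocyte sums, with means of 874 CPM in wild type and 637 CPM in Q150X, were mostly 1 gene, Abcc9, at 638 and 523 CPM. Abcc9 stood at 136 and 143 CPM in uninjured endothelial cells and at 336 and 338 CPM in uninjured hearts. The sum in cardiomyocytes is thus not a level of mural cells. The part of mural cells in the endothelial levels below was not tested. Several libraries stood apart from their groups. Replicate 2 of the day 3 Q150X endothelial cells had only 588 CPM of endothelial markers, below each of the 6 uninjured whole hearts. Replicate 1 of the uninjured hearts of each genotype had 2643 to 2685 CPM of atrial markers against 28.0 to 52.7 in the other 4, and replicate 4 of the day 7 wild-type hearts was set aside with them in one alternative because earlier results of these data had named it. The endothelial libraries differed in sex-linked genes between times: Xist, the RNA of the inactive X chromosome, stood at 0.481 to 0.878 CPM at homeostasis and at 325 to 853 CPM at day 3, so time after MI and sex cannot be told apart in endothelial cells.

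Levels are given as CPM scaled with one set of TMM factors over all 43 libraries. Over the 14 groups the highest group mean of a gene was 4.05 times (Hspg2) to 22.3 times (Nid1) its lowest. Wild-type endothelial cells at day 3 held the highest mean for Col4a1, Col4a2, Lamc1, Nid1 and Hspg2, and uninjured wild-type endothelial cells for Lama4 and Lamb1. Cardiomyocytes held the highest mean of the other 3: the uninjured wild-type cells for Lama2 and Lamb2 and the uninjured Q150X cells for Lama5. Most groups next to each other in this order had overlapping libraries: of the 13 neighbouring pairs for each gene, 0 to 3 were apart. For Lama4 the gaps lay below uninjured Q150X endothelial cells (mean 397 CPM), below day 3 wild-type endothelial cells (307 CPM, followed by uninjured wild-type hearts at 116 CPM) and above uninjured Q150X cardiomyocytes (39.9 CPM).

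**Figure D1:**
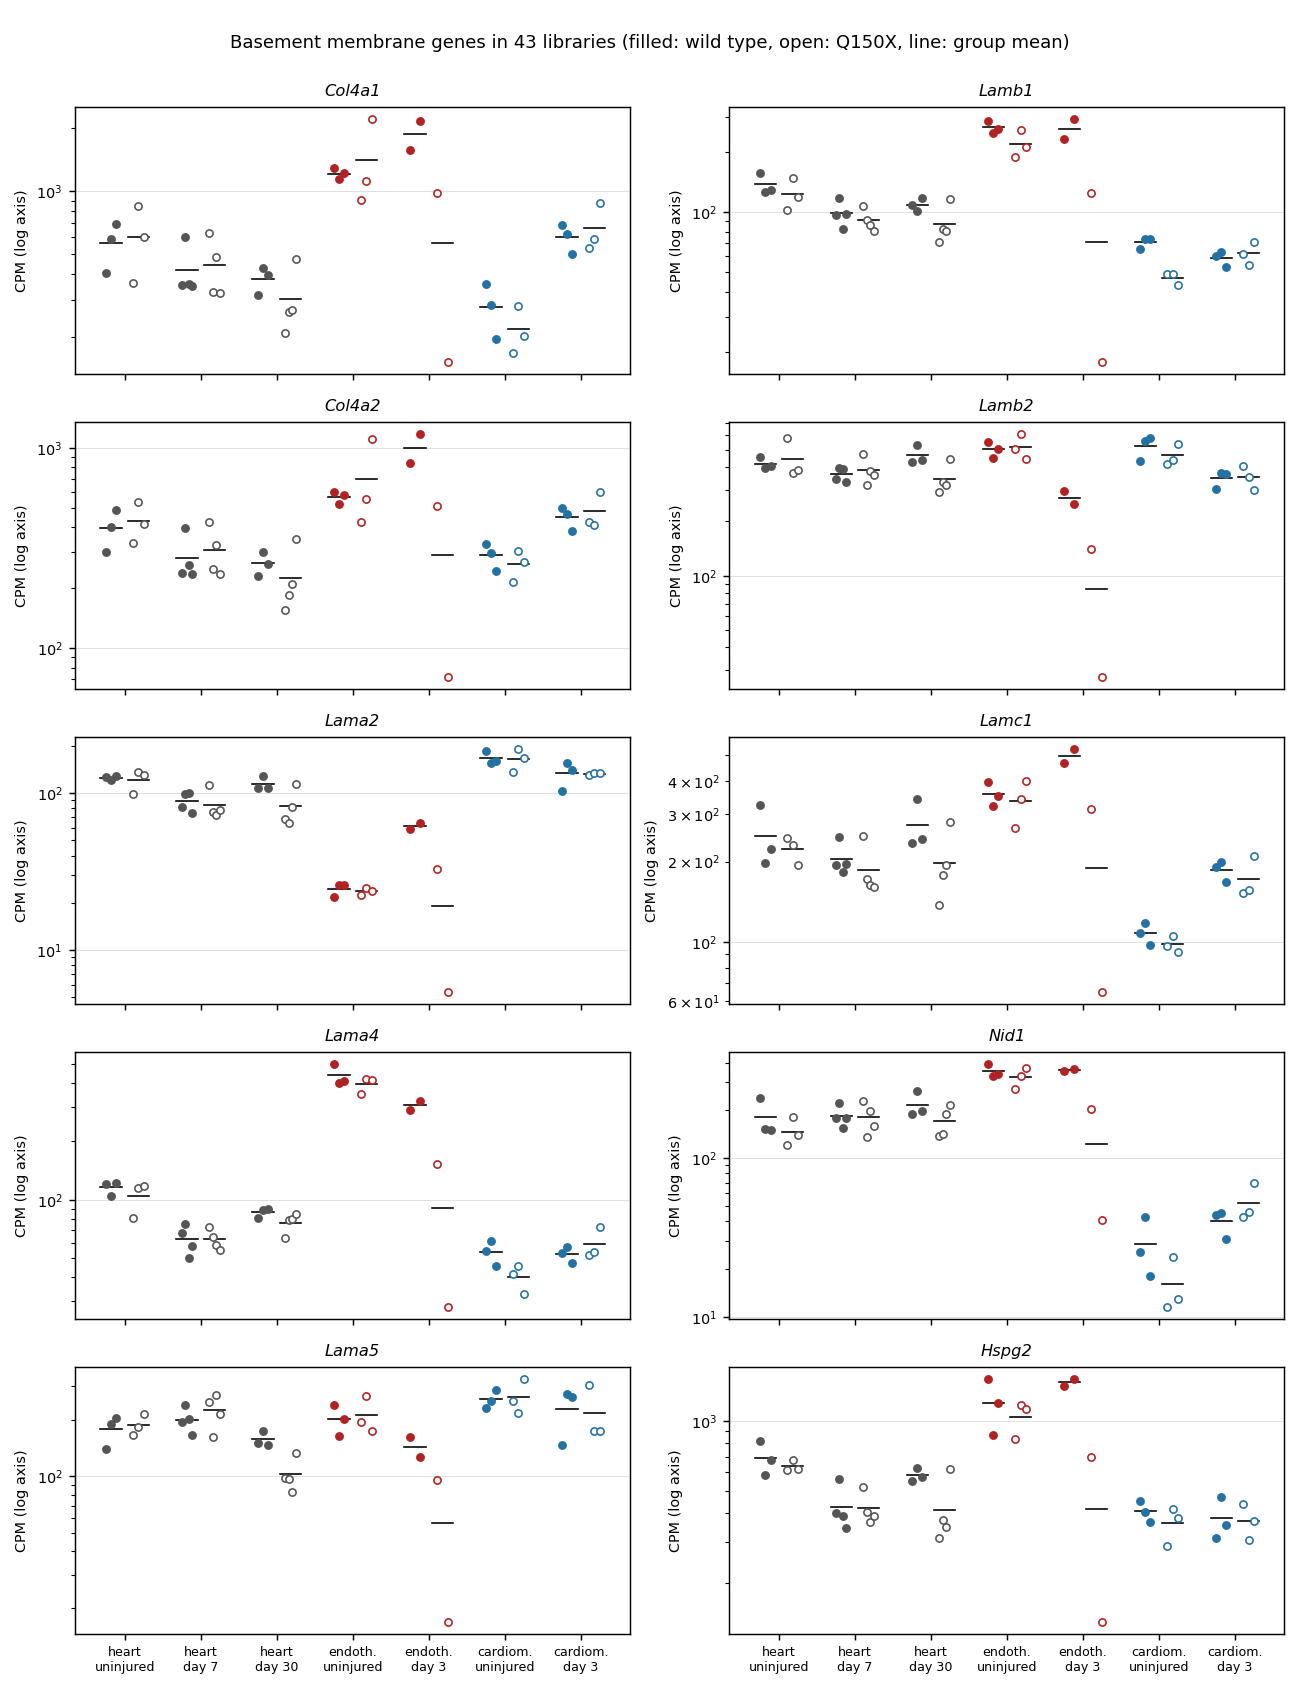
TMM-scaled CPM (log axis) of the 10 genes in each of the 43 libraries, by tissue or cell type and time, with wild type filled, Q150X open and a line at the group mean. Nid1 reached at most 69.1 CPM in a cardiomyocyte library, Lama2 at most 64.7 CPM in an endothelial library, and 1 day 3 Q150X endothelial library was the lowest of all 43 for 9 of the genes, the exception being Nid1.

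In the uninjured heart both collagen IV chains and both linkers were higher in endothelial libraries than in cardiomyocyte libraries. So were 3 of the 6 laminin chains (Lama4, Lamb1 and Lamc1). The laminin chain Lama2 was higher in cardiomyocyte libraries. Lama5 was also called higher there, but its direction turned with scaling to library size alone. The order of the genes also differed between the cell types. Per kilobase of transcript, Col4a1 led in wild-type endothelial cells at 184 CPM per kb and Lama2 came last at 2.56, whereas in wild-type cardiomyocytes Lamb2 led at 93.0 CPM per kb and Nid1 came last at 4.70.

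Lama4, the alpha chain of endothelial laminin, stood at 503, 402 and 410 CPM in the wild-type endothelial libraries and at 54.4, 61.1 and 45.5 CPM in the wild-type cardiomyocyte libraries. Lama2, the alpha chain of muscle laminin, stood at 21.8, 26.0 and 26.1 CPM against 185, 156 and 161 CPM. Nid1, which links laminin to collagen IV, stood at 391.8, 329 and 338 CPM against 25.4, 42.3 and 18.1 CPM. For all 3 genes the libraries of the cell types did not overlap in either genotype. The log2 fold change of endothelial cells over cardiomyocytes was 2.85 ± 0.19 (SE) for Lama4, -2.95 ± 0.16 for Lama2 and 3.44 ± 0.32 for Nid1 in wild type (edgeR quasi-likelihood test, adjusted p = 4.39e-10, 3.72e-11 and 4.20e-08), and 3.14 ± 0.19, -2.97 ± 0.16 and 4.15 ± 0.33 in Q150X.

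Col4a1 stood at 1284, 1138 and 1220 CPM in wild-type endothelial cells and at 358, 283 and 196 CPM in wild-type cardiomyocytes. Its partner chain Col4a2 stood at 601, 523 and 581 CPM against 331, 298 and 243 CPM. Both were higher in each endothelial library than in any cardiomyocyte library, with log2 fold changes of 1.94 ± 0.35 and 0.79 ± 0.28 in wild type (edgeR adjusted p = 0.000101 and 0.0194) and 2.53 ± 0.36 and 1.24 ± 0.28 in Q150X. Without wild-type cardiomyocyte replicate 3, Col4a2 lost its call in wild type (0.68, adjusted p = 0.0756). Lamb1 and Lamc1, the most widely used beta and gamma chains, were higher by 1.72 ± 0.16 and 1.55 ± 0.18, and Hspg2, the heparan sulphate proteoglycan perlecan, by 1.37 ± 0.20 in wild type, with 2.05, 1.61 and 1.36 in Q150X. Lamb2, the beta chain also found at the neuromuscular junction, gave -0.24 ± 0.18 in wild type (edgeR adjusted p = 0.243) and -0.01 ± 0.18 in Q150X, and its libraries overlapped.

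Lama5, the broadly expressed alpha chain, gave -0.53 ± 0.21 in wild type and -0.49 ± 0.21 in Q150X (edgeR adjusted p = 0.0308 and 0.0415), and its libraries overlapped, with 238, 164 and 202 CPM in wild-type endothelial cells and 230, 250 and 289 CPM in wild-type cardiomyocytes. With scaling to library size alone the sign of Lama5 turned, to 0.79 and 0.66, and both values passed (edgeR adjusted p = 0.00255 and 0.00848). That scaling moved the median of all genes from 0.20 to 1.52 in wild type and from 0.26 to 1.41 in Q150X, so Lama5 lay below the median of all genes under either scaling. Its call was lost with DESeq2 (adjusted p = 0.0566 in wild type and 0.0626 in Q150X). It was also lost with the size factors of DESeq2 in edgeR (adjusted p = 0.0609 and 0.0664). With no filter it was lost in Q150X (edgeR adjusted p = 0.0896). Leaving out endothelial replicate 2 or 3 or cardiomyocyte replicate 2 or 3 lost the call in wild type. Leaving out replicate 1 or 3 of either cell type lost it in Q150X. Over these omissions the log2 values were -0.54 to -0.30 (edgeR adjusted p 0.0625 to 0.246).

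In all, 7 of the 10 genes were called higher and 2 lower in endothelial cells in each genotype. Of all genes tested, 70.4% were called in wild type (37.8% higher, 32.6% lower) and 72.1% in Q150X (39.3% higher, 32.8% lower), so a call by itself did not set these genes apart. The median of the 10 was 1.46 in wild type and 1.48 in Q150X, beside 0.20 and 0.26 over all genes. Among all called genes 53.66% were higher in wild-type endothelial cells and 54.51% in Q150X, and with library size alone 80.04% and 77.73%. The markers show how far the cell types were separated. For 8 endothelial markers the cardiomyocyte level was 1.69 to 8.28% of the endothelial level, with a median of 3.57%. The cardiomyocyte level was 6.62% of the endothelial level for Nid1, 11.2% for Lama4, 18.9% for Col4a1, 24.3% for Lamb1, 29.7% for Lamc1, 34.4% for Hspg2 and 43.7% for Col4a2, while it was 96.5% for Lamb2, 126% for Lama5 and 689% for Lama2. Of these only the Nid1 level was within the range of the endothelial markers.

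**Figure D2:**
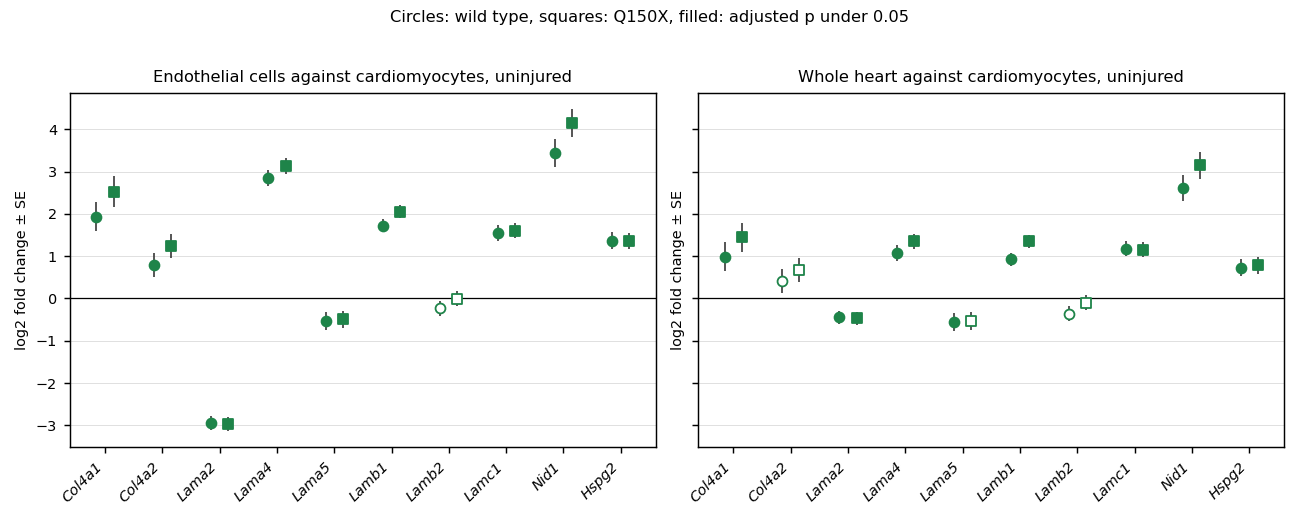
Log2 fold change ± SE of each gene for uninjured endothelial cells (left) and whole hearts (right) against uninjured cardiomyocytes, with circles for wild type, squares for Q150X and filled symbols for adjusted p under 0.05. Nid1 and Lama4 had the highest values for endothelial cells and Lama2 the lowest, in both genotypes.

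Wild-type whole hearts lay between the endothelial and cardiomyocyte libraries in mean level for 8 of the 10 genes, all but Lama5 and Lamb2. Against cardiomyocytes, hearts were higher for 6 genes and lower for 2 in wild type (33.3% of all genes called, 19.3% higher and 14% lower) and higher for 6 and lower for 1 in Q150X (31.6%, 20.4% higher and 11.2% lower). In wild type the values were 2.62 ± 0.31 for Nid1, 1.17 ± 0.18 for Lamc1, 1.08 ± 0.18 for Lama4, 0.92 ± 0.15 for Lamb1 and 0.73 ± 0.20 for Hspg2. These 5 kept their calls without wild-type heart replicate 2 or cardiomyocyte replicate 3, which took the count from 8 to 5. The other 3 calls were 0.99 ± 0.34 for Col4a1, -0.45 ± 0.15 for Lama2 and -0.56 ± 0.21 for Lama5. The last 2 turned to 0.23 and 0.12 with library size alone, which put 96.75% of called genes higher in hearts instead of 57.87% (95.81% instead of 64.59% in Q150X). Against hearts, wild-type endothelial cells were higher for 5 genes (0.64 to 1.77) and lower for Lama2 (-2.50 ± 0.16), with 61.1% of all genes called (29.7% higher, 31.4% lower). Without endothelial replicate 1 the count of 6 fell to 3. In Q150X 6 were higher and Lama2 lower, with 63.2% of all genes called (30.8% higher, 32.4% lower). In bulk libraries fewer cells of a type and less RNA in each cell cannot be told apart.

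The make-up of the laminin alpha chains separated the cell types. Of the summed per-length mRNA of Lama2, Lama4 and Lama5, Lama4 made 77.0% ± 2.67 (SD, n = 6, both genotypes) in uninjured endothelial cells, 38.6% ± 3.09 in uninjured hearts and 16.2% ± 3.54 in uninjured cardiomyocytes. Lama2 made 2.83% ± 0.388, 27.3% ± 1.23 and 36.1% ± 4.11 in the same order. Lama5 made 20.2% ± 2.73, 34.1% ± 3.91 and 47.7% ± 5.91. No endothelial library overlapped a cardiomyocyte library for any of the 3 chains. Between the beta chains, Lamb1 made 31.5% ± 3.13 of the per-length sum of Lamb1 and Lamb2 in endothelial cells and 10.4% ± 1.87 in cardiomyocytes, again with no overlap (26.6 to 35.0% and 7.26 to 12.8%). These shares are ratios within a library and do not depend on the scaling between libraries. They were not tested.

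**Figure D3:**
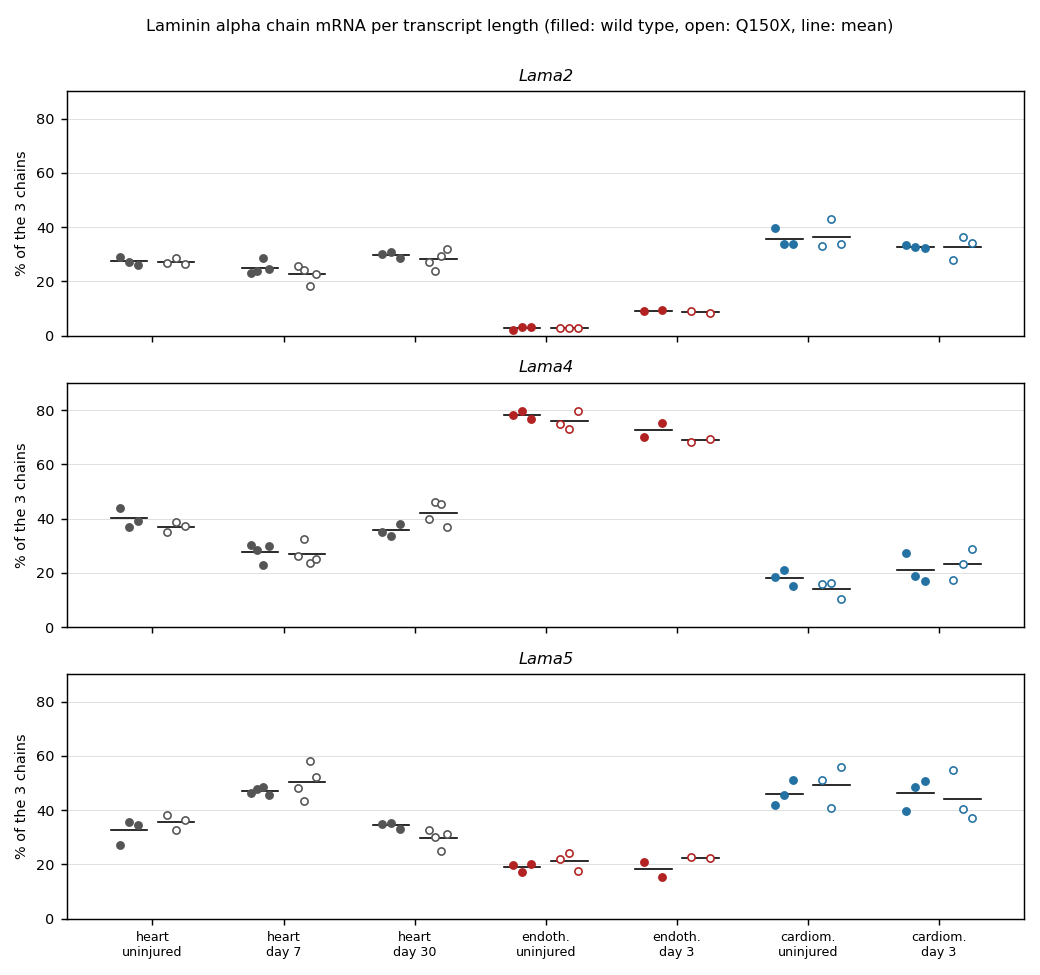
Share of Lama2, Lama4 and Lama5 in their summed mRNA per transcript length, in percent, in each library, with wild type filled, Q150X open and a line at the group mean. Lama4 held 68.2 to 79.6% in every endothelial library and 10.4 to 28.9% in every cardiomyocyte library.

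The 2 collagen IV chains also did not keep a fixed ratio. Col4a1 had 2.00 to 2.18 counts for each count of Col4a2 in the 6 uninjured endothelial libraries, 1.07 to 1.58 in uninjured hearts and 0.749 to 1.08 in uninjured cardiomyocytes. In cardiomyocytes at day 3 after MI the ratio was 1.25 to 1.46, above all 6 uninjured cardiomyocyte libraries. Endothelial cells at day 3 had 1.86 to 2.12, including the library with few endothelial markers.

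**Figure D4:**
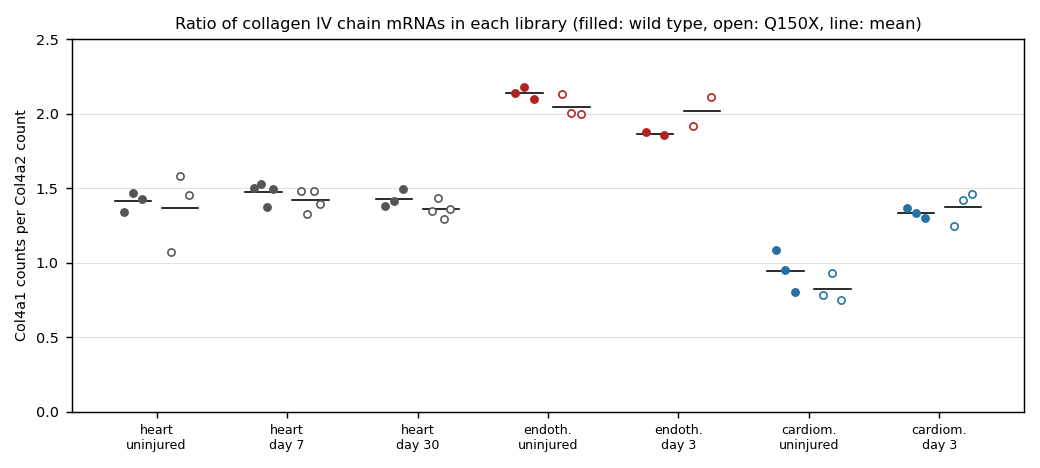
Col4a1 counts for each Col4a2 count in every library, with wild type filled, Q150X open and a line at the group mean. The 6 uninjured cardiomyocyte libraries lay at 0.749 to 1.08 and the 6 day 3 cardiomyocyte libraries at 1.25 to 1.46.

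At day 3 after MI, cardiomyocyte libraries held more collagen IV and laminin gamma chain mRNA and less Lama2 and Lamb2 mRNA in both genotypes. In wild type 3 genes rose (Col4a1, Col4a2 and Lamc1) and 3 fell (Lama2, Lamb1 and Lamb2), with 17.4% of all genes called (10.1% higher, 7.22% lower). In Q150X 5 rose (the same 3 with Lama4 and Nid1) and 2 fell (Lama2 and Lamb2), with 27% of all genes called (14.9% higher, 12.1% lower).

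Col4a1 stood at 358, 283 and 196 CPM in uninjured and at 686, 620 and 499 CPM in day 3 wild-type cardiomyocytes. In Q150X it stood at 168, 283 and 201 CPM and then at 535, 587 and 880 CPM. Every day 3 library was above every uninjured one, with log2 fold changes of 1.01 ± 0.26 in wild type and 1.503 ± 0.26 in Q150X (edgeR adjusted p = 0.0228 and 0.00205). Lamc1, the gamma chain shared by most laminins, went from 108, 118 and 97.3 CPM to 191, 198 and 167 CPM in wild type and from 96.9, 105 and 91.9 CPM to 153, 156 and 210 CPM in Q150X. Its groups did not overlap, and its change was 0.69 ± 0.12 and 0.70 ± 0.12 (edgeR adjusted p = 0.00148 and 0.000708). Col4a2 changed by 0.53 ± 0.17 and 0.76 ± 0.17.

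Lamb2 fell by 0.69 on the log2 scale in wild type (SE 0.14, edgeR adjusted p = 0.00450), from 434, 558 and 578 CPM to 302, 371 and 368 CPM. In Q150X it went from 417, 439 and 538 CPM to 405, 351 and 297 CPM, a change of -0.52 ± 0.14 (edgeR adjusted p = 0.0132). The groups did not overlap in either genotype. Lama2 changed by -0.42 ± 0.14 and -0.43 ± 0.14, and Lamb1 by -0.36 ± 0.11 in wild type, while its Q150X value was 0.29 ± 0.11 (adjusted p = 0.0584). Nid1 stood at 11.6, 23.9 and 12.96 CPM in uninjured and at 42.5, 45.4 and 69.1 CPM in day 3 Q150X cardiomyocytes, a change of 1.58 ± 0.36 (edgeR adjusted p = 0.00924), and Lama4 changed by 0.45 ± 0.15 there. The wild-type Nid1 libraries overlapped, with 25.4, 42.3 and 18.1 CPM and then 43.7, 45.1 and 30.9 CPM.

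The difference between genotypes in this response was tested directly, and 0 of the 10 genes passed (adjusted p 0.495 to 1, edgeR, 0% of all genes called, with 3 of the 10 and 1186 of all genes at an unadjusted p under 0.05). DESeq2 called 0 of the 10 as well. Of the 5 lower calls, that of Lamb2 in wild type was kept with library size alone and the other 4 were not, while all 5 were kept with the size factors of DESeq2. With library size alone, which moved the median of all genes to 0.30 in wild type and 0.27 in Q150X, Lama2 gave -0.12 and -0.15, Lamb1 -0.04 and 0.57, and Lamb2 -0.37 and -0.25. Of these, the wild-type Lamb2 value and the Q150X Lamb1 value passed. The share of called genes that were higher went from 58.43 to 94.68% in wild type and from 55.06 to 90.44% in Q150X.

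The calls of Lamc1 and Lamb2 in wild type, and those of Col4a1, Col4a2, Lamc1 and Nid1 in Q150X, stood in every alternative that was run. The other wild-type calls did not: Col4a1 and Col4a2 lost theirs without uninjured replicate 2 or 3 or day 3 replicate 1 or 2 (adjusted p 0.0562 to 0.160), Lama2 without any library but day 3 replicate 2 (0.0581 to 0.199) and Lamb1 without any but uninjured replicate 1 (0.0558 to 0.157). Leaving out uninjured replicate 2 or 3 or day 3 replicate 1 took the wild-type count from 6 to 2, and leaving out day 3 replicate 2 took it to 3. With no filter on low counts Col4a1 also lost its wild-type call (adjusted p = 0.0659). With the replicate block Col4a2 and Lamb1 lost theirs in wild type (edgeR adjusted p = 0.0683 and 0.0617). In Q150X, Lama2 lost its call without any library but uninjured replicate 1, Lama4 without uninjured replicate 1 or 3 or day 3 replicate 3, and Lamb2 without uninjured replicate 3 or day 3 replicate 2 or 3 (adjusted p 0.0543 to 0.165). Leaving out uninjured or day 3 replicate 3 took the Q150X count from 7 to 4.

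Markers of other cells moved with these changes. Summed fibroblast markers stood at 40.5 to 215 CPM in uninjured and at 350 to 699 CPM in day 3 cardiomyocytes, with 3 of 8 called higher in wild type and 4 of 8 in Q150X. Summed leukocyte markers went from 2.81 to 14.2 CPM to 129 to 345 CPM, with 6 of 6 tested called higher in both genotypes, while the T cell marker Cd3e stayed under 0.1 CPM in 3 of the 4 groups. Summed endothelial markers were 223 to 531 CPM and then 220 to 279 CPM in wild type, with 0 of 8 called, and 149 to 232 CPM and then 263 to 327 CPM in Q150X, with 2 of 8 called higher. Summed mural cell markers without the muscle gene Des were 562 to 1046 CPM and then 456 to 702 CPM. The mean of Abcc9, the largest part of that sum, went from 638 to 386 CPM in wild type and from 523 to 327 CPM in Q150X. The means of the other mural markers all rose in Q150X, Rgs5 from 75.5 to 129 CPM. Among them in wild type, Rgs5 fell from 177 to 125 CPM and Kcnj8 from 4.53 to 4.13 CPM, and the rest rose. The part of these cells in the changes was not tested.

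Other genes of the pathway were counted from lists of further chains, further matrix proteins, receptors and collagen-processing enzymes, 49 of which were tested in cardiomyocytes. In wild type 11 were called higher and 2 lower, and in Q150X 20 higher and 5 lower, beside 17.4% and 27% of all genes called. Among the strongest in wild type, P4hb, a subunit of the enzyme that hydroxylates collagen prolines, changed by 0.87 ± 0.11, Itga7, the laminin-binding integrin alpha chain of muscle, by 0.68 ± 0.09, and Ddr1, a collagen receptor, by 0.75 ± 0.14. In Q150X, Col18a1, a collagen of vessel basement membranes, changed by 3.40 ± 0.43 and P4hb by 0.68 ± 0.11, whereas the catalytic subunits P4ha1 and P4ha2 changed by -0.68 ± 0.12 and -0.62 ± 0.11.

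**Figure D5:**
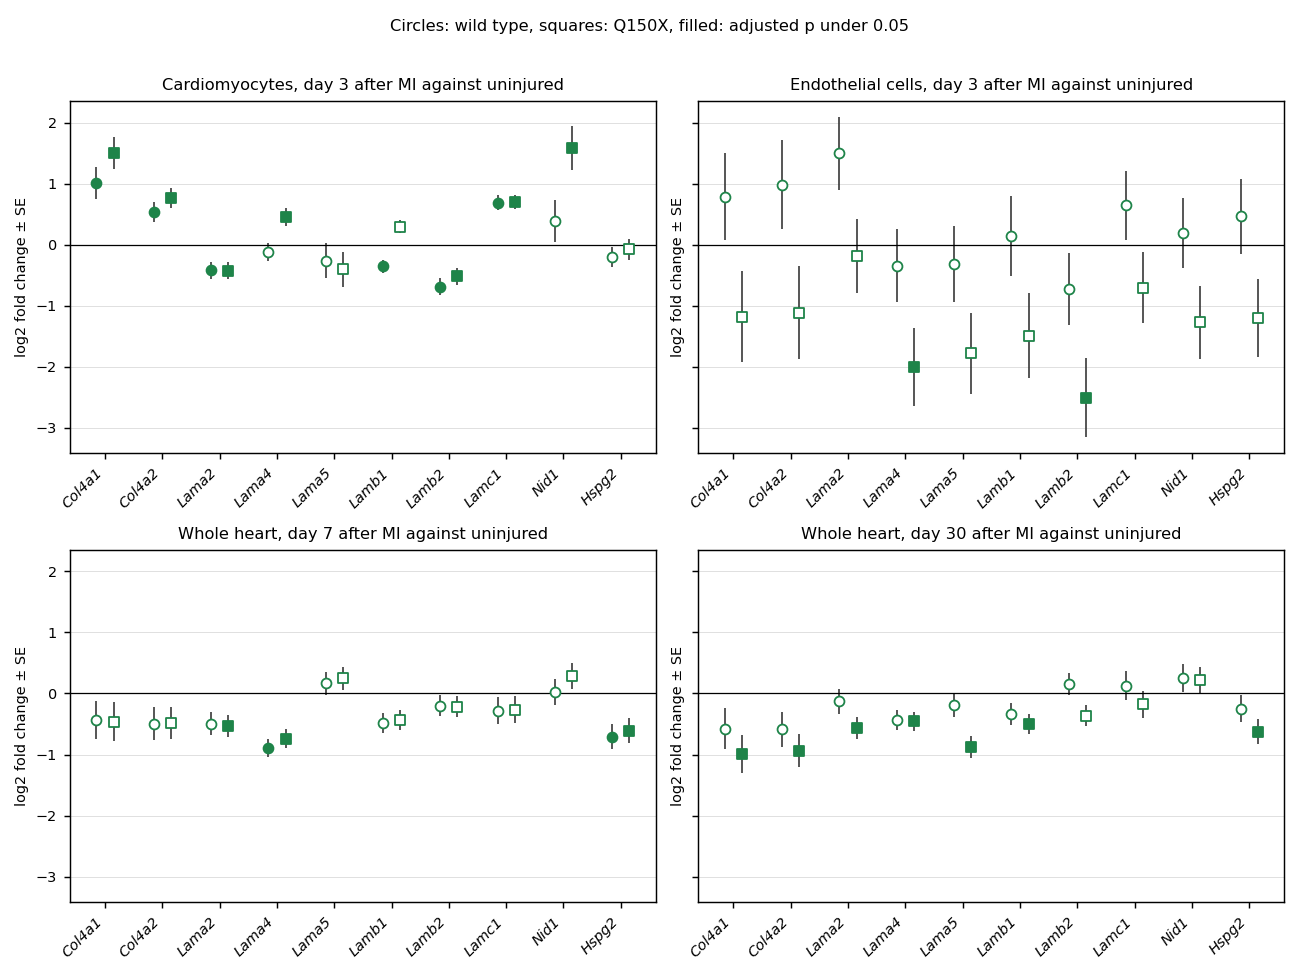
Log2 fold change ± SE of each gene after MI against the uninjured state, for cardiomyocytes and endothelial cells at day 3 and whole hearts at days 7 and 30, with circles for wild type, squares for Q150X and filled symbols for adjusted p under 0.05. Filled symbols above 0 were seen only in cardiomyocytes, and the endothelial values had the widest errors.

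In whole hearts after MI the vessel laminin chain Lama4 and perlecan were lower at day 7 in both genotypes, and 7 of the 10 genes were lower at day 30 in Q150X hearts. No member rose against the uninjured state at either time. Lama4 stood at 121, 104 and 122 CPM in uninjured and at 67.3, 74.6, 50.3 and 57.9 CPM in day 7 wild-type hearts. In Q150X hearts it stood at 80.5, 114 and 118 CPM and then at 72.4, 64.3, 58.4 and 55.1 CPM. The groups did not overlap, and the change was -0.89 ± 0.15 in wild type and -0.74 ± 0.15 in Q150X (edgeR adjusted p = 0.000703 and 0.00157). Both calls stood in every alternative.

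Hspg2 stood at 818, 581 and 676 CPM and then at 402, 562, 387 and 346 CPM in wild type, and at 614, 677 and 620 CPM and then at 519, 403, 365 and 387 CPM in Q150X. The groups did not overlap, with changes of -0.71 ± 0.21 and -0.61 ± 0.21 (edgeR adjusted p = 0.0267 and 0.0335). In wild type this call was lost without uninjured replicate 1 or 3 or day 7 replicate 1, 3 or 4 (adjusted p 0.0640 to 0.0997) and with library size alone (-0.65, adjusted p = 0.0559), and without the libraries that stood apart it was -0.49 (adjusted p = 0.162). Lama2 was called in Q150X, at -0.53 ± 0.19 (adjusted p = 0.0411). Same-numbered libraries of these Q150X groups had correlations of 0.110 to 0.191. With the replicate number as a block over all hearts, the Lama2 value was -0.55 (edgeR adjusted p = 0.0579). Lama2 and Hspg2 in Q150X lost their calls without uninjured replicate 2 or 3 or day 7 replicate 2, 3 or 4 (adjusted p 0.0597 to 0.129), each of which took the count from 3 to 1, and with library size alone (-0.31 and -0.39). Thus 2 genes fell in wild type, where 13.7% of all genes were called and 6.07% called lower, and 3 in Q150X, where 26% were called and 12.3% called lower. The share of called genes that were higher went from 55.76 to 65.24% in wild type with library size alone, and from 52.88 to 77.35% in Q150X.

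The alpha chain make-up of the heart differed at day 7. Lama5 made 48.8% ± 4.51 (SD, n = 8) of the 3 alpha chains per length at day 7, against 34.1% ± 3.91 (n = 6) in uninjured hearts and 31.8% ± 3.48 (n = 7) at day 30. Each day 7 library, at 43.3 to 58.0%, was above each uninjured (27.1 to 38.2%) and day 30 (25.1 to 35.3%) library. The share of Lama4 was 27.4% ± 3.43 at day 7 and 38.6% ± 3.09 in uninjured hearts.

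At day 30, 0 of the 10 genes passed in wild type (edgeR, 8.93% of all genes called, 1 of the 10 and 4916 of all genes at an unadjusted p under 0.05), and DESeq2 also called 0. In Q150X 7 of the 10 were lower, with 29.7% of all genes called in either direction and 14.2% called lower. The values were -0.99 ± 0.31 for Col4a1, -0.94 ± 0.27 for Col4a2, -0.88 ± 0.18 for Lama5, -0.63 ± 0.21 for Hspg2, -0.57 ± 0.19 for Lama2, -0.50 ± 0.17 for Lamb1 and -0.46 ± 0.15 for Lama4. Lama5 stood at 166, 182 and 215 CPM in uninjured and at 97.8, 96.5, 82.7 and 133 CPM in day 30 Q150X hearts. It was the only one of the 7 whose groups did not overlap (edgeR adjusted p = 0.00178). Col4a1, by contrast, stood at 361, 844 and 606 CPM and then at 208, 264, 271 and 475 CPM, where replicate 4 at day 30 was above the lowest uninjured library.

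This count depended on single libraries and on scaling. It was 1 without uninjured Q150X replicate 2, 2 without uninjured replicate 3 or day 30 replicate 1, and 3 without day 30 replicate 3. With library size alone only Lama5 passed (-0.62), and the share of called genes that were higher went from 52.38 to 81.34%. Without the libraries that stood apart, which include uninjured Q150X replicate 1, the same 7 passed, with Col4a1 at -1.26 and Lama5 at -0.96. The Lama5 call stood in every alternative. The difference between genotypes in the change to day 30 was tested directly, and 0 of the 10 genes passed (edgeR, adjusted p 0.450 to 0.987, 0% of all genes called).

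From day 7 to day 30, Lama4 rose by 0.46 ± 0.15 in wild-type hearts (edgeR adjusted p = 0.0285, 30% of all genes called, 13.9% higher). That call was lost without day 7 replicate 3 or 4 or day 30 replicate 2 or 3 (adjusted p 0.0710 to 0.0927), and the count was 2 without day 7 replicate 2. In Q150X hearts Lama5 fell by 1.13 (SE 0.17, edgeR adjusted p = 0.000123, 31.4% of all genes called, 16.5% lower), from 249, 161, 270 and 215 CPM at day 7, with no overlap. Without day 30 replicate 4 the count there was 3.

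The mRNA of cell markers in the hearts differed between times. Summed cardiomyocyte markers were 45838 to 74457 CPM in uninjured hearts, 33642 to 44319 CPM at day 7 and 27215 to 49838 CPM at day 30. Of these, 6 of 8 were called lower in Q150X at day 30. In wild type at day 7 the means of Tnnt2 (4141 to 4963 CPM), Actn2 (1629 to 1850) and Pln (623 to 644) rose. Those of the other cardiomyocyte markers fell, Myh6 from 24788 to 18772 CPM and Actc1 from 11100 to 4476 CPM. Summed endothelial markers were 614 to 1170, 764 to 985 and 539 to 785 CPM, with 1 of 8 called lower at day 7 in wild type, 0 at day 7 in Q150X, and 3 and 2 at day 30. Wild-type hearts alone had 1057 to 1170 CPM uninjured, 764 to 985 CPM at day 7 and 674 to 760 CPM at day 30, with no overlap between times. Q150X hearts had 614, 1105 and 1015 CPM uninjured, then 767 to 834 and 539 to 785 CPM. Fibroblast markers were 1535 to 4453, 2457 to 3883 and 3678 to 6158 CPM, and leukocyte markers 151 to 262, 223 to 873 and 360 to 1272 CPM. Uninjured replicate 1, which stood apart in atrial markers, gave the 614 CPM of endothelial markers (Q150X) and the 4453 CPM of fibroblast markers (wild type). It also gave the 45838 (wild type) and 74457 CPM (Q150X) of cardiomyocyte markers. Mural markers without Des were 891 to 1344 CPM in uninjured Q150X and 611 to 791 CPM in day 30 Q150X hearts. The part of these cells in the values above was not tested.

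Of 50 other pathway genes tested in hearts, 1 was called higher and 11 lower at day 7 in wild type, and 3 higher and 15 lower in Q150X. Lower at day 7 in both genotypes were Vwa1, a matrix protein that binds perlecan (-1.08 ± 0.19 and -0.92 ± 0.19), Serpinh1, the collagen chaperone HSP47 (-0.89 ± 0.19 and -0.92 ± 0.19), and Col15a1, a collagen of muscle and vessel basement membranes (-1.80 ± 0.40 and -1.72 ± 0.39). Over all genes 13.7% and 26% were called. From day 7 to day 30, 15 were higher and 2 lower in wild type and 16 higher and 3 lower in Q150X, where 30% and 31.4% of all genes were called, Serpinh1 at 1.07 ± 0.19 and 1.21 ± 0.18 among them. At day 30 against uninjured hearts, 4 were higher and 1 lower in wild type, and 11 higher and 7 lower in Q150X, beside 8.93% and 29.7% of all genes called. Those in Q150X included Sparc, a collagen-binding matrix protein, at 1.65 ± 0.30, Ppib, a chaperone of collagen folding, at 1.13 ± 0.20, and Itga7 at -0.85 ± 0.20.

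In endothelial cells at day 3 after MI, 0 of the genes passed in wild type and 2 in Q150X, where the libraries of the pair were far apart. The wild-type test was by edgeR (9.52% of all genes called, 1 of the 10 and 4566 of all genes at an unadjusted p under 0.05), and DESeq2 also called 0. The spread in this test came from all endothelial libraries, including the day 3 Q150X pair. It was not rerun without that pair. In wild type the times did not overlap for Col4a1, Col4a2, Lama2 and Lamc1, with values above 0. Nor did they for Lama4, Lama5 and Lamb2, with values below 0. The share of all genes without overlap is not given here. Lama2 stood at 21.8, 26.0 and 26.1 CPM in uninjured and at 59.1 and 64.7 CPM in day 3 wild-type endothelial cells, with no overlap and a value of 1.495 ± 0.59 (adjusted p = 0.161). In Q150X 2 were lower, with 33.8% of all genes called and 15.1% called lower: Lamb2 at -2.51 ± 0.65 and Lama4 at -2.0002 ± 0.64 (edgeR adjusted p = 0.0202 and 0.0425). Lamb2 stood at 505, 611 and 445 CPM in uninjured and at 140 and 27.5 CPM in day 3 Q150X libraries. Lama4 stood at 352, 422 and 417 CPM and then at 154 and 28.1 CPM.

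The 2 day 3 Q150X libraries differed in level. As a share of the day 3 wild-type mean, replicate 1 stood at 47.4 to 66.9% over the 10 genes and replicate 2 at 6.80 to 13.1%. Col4a1 stood at 980 and 152 CPM in these libraries and at 1565 and 2170 CPM in wild type. Endothelial markers were at 53.2 to 105% of the wild-type mean in replicate 1 and at 10.2 to 24.4% in replicate 2. Without replicate 2, 6 genes passed against uninjured Q150X cells, beside 7144 of 19066 over all genes: Lama2 was higher (0.60), and Lama4 (-1.23), Lama5 (-1.005), Lamb1 (-0.68), Lamb2 (-1.76) and Nid1 (-0.52) were lower. Without replicate 1 all 10 passed, beside 12002 of 20295 over all genes. The calls of Lama4 and Lamb2 also depended on the uninjured libraries: Lama4 lost its call without any 1 of the 3 (adjusted p 0.0778 to 0.0923) and Lamb2 without replicate 2 (adjusted p = 0.0541), so the count was 0 or 1.

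Against day 3 wild type, 0 of the 10 passed in Q150X endothelial cells with both libraries (edgeR, adjusted p 0.177 to 0.258, 0% of all genes called, 6 of the 10 and 4223 of all genes at an unadjusted p under 0.05). All 10 values were negative, from -1.91 to -1.38. They rest on the same pair of Q150X libraries, so the genes are not separate evidence. DESeq2 called 1 of the 10, Hspg2 at -1.82, and 2348 of all 18223 genes. Without replicate 2, which stood apart, 6 genes passed, beside 1151 of 19066 over all genes: Hspg2 at -1.11, Lamb1 at -1.10, Lama4 at -1.03, Lamb2 at -0.99, Lama2 at -0.96 and Nid1 at -0.85. The lone Q150X library left is then taken to vary as the other groups do. Without replicate 1 all 10 passed, beside 10498 of 20295 over all genes. The difference between genotypes in the change to day 3 was called for 0 of the 10 with all libraries (0% of all genes), for 1 without replicate 2 (Lama2 at -0.89, adjusted p = 0.0440, beside 347 of 19066 over all genes) and for 10 without replicate 1 (beside 8765 of 20295).

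Markers moved with these values. Summed endothelial markers were 3792 to 3916 CPM in day 3 wild-type and 588 to 2527 CPM in day 3 Q150X libraries, against 6907 to 8251 CPM at homeostasis, and in Q150X 5 of 8 were called lower. Leukocyte markers were 56.3 to 114 CPM at homeostasis and 1511 to 3459 CPM at day 3, while fibroblast markers went from 803 to 1154 CPM to 2192 to 2339 CPM in wild type, with no overlap, and from 621 to 1112 CPM to 1302 and 237 CPM in Q150X. Mural markers without Des were 2670 to 3782 CPM at homeostasis, 1431 to 1457 CPM in day 3 wild-type and 168 to 680 CPM in day 3 Q150X libraries. Their part in the result was not tested. Library size alone put 61.81% of called genes higher in wild type instead of 70.47% and 41.62% instead of 55.28% in Q150X.

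Of 50 other pathway genes tested in endothelial cells, 2 were called higher and 1 lower at day 3 in wild type and 1 higher and 14 lower in Q150X, where 9.52% and 33.8% of all genes were called. Npnt, a ligand of an integrin of the basement membrane, was lower in both, at -1.48 ± 0.35 and -2.88 ± 0.38. In wild type Lamb3, a laminin beta chain of epithelia, and Itga2, a collagen-binding integrin chain, were higher at 1.88 ± 0.46 and 1.68 ± 0.44. Ntn4, a netrin that binds laminins, was at -2.99 ± 0.35 and Itgb4, an integrin beta chain that binds laminin, at -2.54 ± 0.49 in Q150X.

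In the other comparisons of genotype, none of the 10 genes differed past the threshold. In uninjured hearts 0 passed, with values from -0.29 to 0.11 (SE 0.16 to 0.34), in day 7 hearts 0, with -0.14 to 0.16 (SE 0.14 to 0.29), and in uninjured endothelial cells 0, with -0.28 to 0.29 (SE 0.51 to 0.66). In each of these edgeR called 0% of all genes, none of the 10 genes had an unadjusted p under 0.05, and 504, 561 and 168 of all genes did. DESeq2 called 3, 4 and 1 of all genes. In the endothelial fit a log2 change as large as 0.51 was thus within 1 SE and not detectable. That fit took its spread from all 10 endothelial libraries, including the day 3 Q150X pair that lay far apart. The uninjured comparison was not rerun without that pair.

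At day 30 all 10 values in hearts were negative in Q150X against wild type, from -0.61 to -0.17, and 0 passed (edgeR, 0.443% of all genes called, 5 of the 10 and 2481 of all genes at an unadjusted p under 0.05; DESeq2 called 444 of all genes). Lama5 stood at 150, 174 and 147 CPM in wild-type and at 97.8, 96.5, 82.7 and 133 CPM in Q150X hearts at day 30. Those groups did not overlap, and the value was -0.61 ± 0.18 (adjusted p = 0.141). Without day 30 Q150X replicate 4, 2 genes passed, beside 223 of 17775 over all genes. Markers differed between these groups: summed cardiomyocyte markers were 44206 to 49838 CPM in wild type and 27215 to 41011 CPM in Q150X, and mural markers without Des were 807 to 1074 CPM and 611 to 791 CPM, with no overlap for either. Their part in the result was not tested.

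In uninjured cardiomyocytes Lamb1 stood at 65.5, 73.6 and 73.7 CPM in wild type and at 48.9, 48.8 and 43.3 CPM in Q150X. The groups did not overlap, and the value of -0.56 ± 0.11 did not pass over all genes with edgeR (adjusted p = 0.109), while DESeq2 gave an adjusted p of 0.00440. There 0 of the 10 and 0% of all genes were called by edgeR, with 2 of the 10 and 2009 of all genes at an unadjusted p under 0.05, and DESeq2 called 257 of all genes. Endothelial markers summed to 223 to 531 CPM in wild-type and 149 to 232 CPM in Q150X uninjured cardiomyocytes, and their part was not tested. At day 3 the Lamb1 libraries overlapped, at 60.6, 63.5 and 53.2 CPM and 61.9, 54.5 and 71.1 CPM, and 0 of the 10 genes and 0% of all genes were called (254 of all genes at an unadjusted p under 0.05, and 2 of all genes by DESeq2). Of the other pathway genes, 0 were called in any of the 7 comparisons of genotype.

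Across the uninjured cell types, 31 of 50 other pathway genes were called higher and 11 lower in endothelial cells than in cardiomyocytes in wild type, where 70.4% of all genes were called. The enzymes and chaperones of collagen production had 10 higher and 2 lower of 14, and the other basement membrane proteins 11 higher and 1 lower of 15, Tinagl1 among them at 4.39 ± 0.25. The receptors were split, with 6 higher and 5 lower of 13. The lower ones included the sarcoglycans Sgca, Sgcb and Sgcd, which belong to the dystrophin complex of muscle, at -5.51 ± 0.33, -2.70 ± 0.13 and -3.95 ± 0.27. In Q150X 31 were higher and 13 lower, where 72.1% of all genes were called.

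The genes whose pattern over the 14 group means was most like that of Col4a1, by the root mean square difference of centred log2 levels, were Col4a2 (0.367), Sema6d (0.368) and Arhgap23 (0.373), out of 8814 genes ranked. For Lama2 they were Mme (0.260), Acot11 (0.277) and Lhpp (0.289), and for Lama5 Zfyve9 (0.202), Arhgap42 (0.207) and Fry (0.217). Among the 10 genes themselves, Lamb1 and Hspg2 had the most similar patterns (0.215) and Lama2 and Nid1 the least similar (2.11). These values describe the 14 groups, which share cell types and libraries, and say nothing of shared function.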

How the data were processed

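Bulk RNA-seq of 43 libraries was read from the merged table of raw counts per gene deposited by the authors, whole numbers for 57010 genes. Per the submitters' processing notes, HISAT2, kallisto and build GRCm39 were used; the tool that made the counts, the annotation and the use of strand are each not given in the sources used here. Per the labels' protocols, RNA was extracted with Trizol. Symbols (52029 genes) came from the GENCODE names. Positions and transcript lengths came from the GENCODE basic annotation of GRCm38, with the longest protein-coding transcript of each gene as its length. Promoter windows came from RefSeq on the same build. Coordinates are thus of that build, and no reads were placed by them.

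Samples were grouped by the labels. Genes were filtered with filterByExpr (minimum count 10, minimum total 15) and tested with edgeR 4.0.16 (R 4.3.3, limma 3.58.1; TMM, quasi-likelihood F-test) in 4 fits: uninjured libraries (17617 genes), hearts (17845), endothelial cells (18223) and cardiomyocytes (15169). P-values were adjusted by the Benjamini-Hochberg method over all genes of a fit, with a threshold of 0.05. SE is the log2 fold change divided by the root of F. Levels are CPM with TMM factors over all 43 libraries, drawn with Python 3.11.15. Of 47 replicate pairs 0 were identical. The fit was tested on simulated data. Alternatives were DESeq2 1.42.0 and its size factors, library size alone, no filter and a replicate block. In others each library, or the libraries that stood apart, were left out. These omissions were run only for comparisons whose own groups held such a library. Replicate numbers come from the labels. Same-numbered libraries deviated together in uninjured hearts of the 2 genotypes (correlations 0.686, 0.498 and 0.566). Correlations were lower in day 7 against uninjured Q150X hearts (0.189, 0.191 and 0.110). They were also lower in day 3 against uninjured wild-type cardiomyocytes (0.0474, 0.172 and 0.244). No main test was paired, and the block was run only as an alternative.

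The 10 genes, the marker lists and the pathway lists were chosen with earlier results of these data known. All 10 genes were described; of other pathway genes, up to 4 per comparison with the smallest p among those that passed were named, and the 3 genes nearest in pattern to Col4a1, Lama2 and Lama5. Single-nucleus data were not analysed here.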

Additional observations from a re-analysis of the deposited data

Results flagged for a closer look

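A library was flagged where it was separated from the others by more than 0.829 of the range of its group. This was so in 4 of 30 groups of values with 4 libraries each. The groups of values reuse the same libraries for each gene, so they are not independent and no chance rate is set beside this count. In day 7 wild-type hearts, replicate 2 had 605 CPM of Col4a1 against 352 to 358 CPM in the other 3 libraries. The same library had 395 CPM of Col4a2 against 235 to 260 CPM. In day 7 Q150X hearts, replicate 1 had 112 CPM of Lama2 against 72.2 to 78.3 CPM in the others. That library also had 248 CPM of Lamc1 against 160 to 172 CPM.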

How the results depend on the processing

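Of 75 calls of the 10 genes, 43 were kept under every alternative that was run, and 724 of 881 alternative values were still past the threshold. The sign changed in 4, all with library size alone: Lama5 in endothelial cells against cardiomyocytes (0.79 in wild type, 0.66 in Q150X), and Lama2 (0.23) and Lama5 (0.12) in wild-type hearts against cardiomyocytes. The number of the 10 genes called moved by over 1.5 times as follows, and the cause was not tested. With library size alone it was 10 instead of 6 for endothelial cells against hearts in wild type, 1 instead of 2 and 1 instead of 3 for hearts at day 7 in wild type and Q150X, 1 instead of 7 at day 30 in Q150X, 0 instead of 1 for day 30 against day 7 in wild type, and 6 instead of 2 for Q150X endothelial cells at day 3. With no filter it was 5 instead of 8 for wild-type hearts against cardiomyocytes, 0 instead of 1 for day 30 against day 7 in wild type, 1 instead of 2 for Q150X endothelial cells at day 3, and 1 instead of 0 for genotype in uninjured cardiomyocytes and for the interaction in cardiomyocytes. DESeq2 gave 4 instead of 2 for wild-type hearts at day 7, and 1 instead of 0 for genotype in day 3 endothelial cells and in uninjured cardiomyocytes. With the replicate block it was 0 instead of 1 for day 30 against day 7 in wild type. For Q150X endothelial cells at day 3 it was 1 instead of 2. The block also took the calls of Col4a2 and Lamb1 in wild-type cardiomyocytes. In Q150X hearts it took those of Lama2 at day 7 and Lama4 at day 30. In uninjured hearts by genotype, where same-numbered libraries correlated most, the block on those 6 libraries gave 0, as without it. Without the libraries that stood apart it was 1 instead of 2 for wild-type hearts at day 7, 6 instead of 2 for Q150X endothelial cells at day 3, 6 instead of 0 for genotype in day 3 endothelial cells and 1 instead of 0 for their interaction. With 1 library left out, the count in wild type was 7 to 9 for endothelial cells against cardiomyocytes, 3 to 6 for endothelial cells against hearts, 5 to 6 for hearts against cardiomyocytes, 1 to 3 for hearts at day 7, 0 to 2 from day 7 to day 30, and 2 to 5 for cardiomyocytes at day 3. In Q150X it was 8 to 9, 5 to 8 and 6 to 8 for the same comparisons of uninjured libraries, 1 to 4 for hearts at day 7, 1 to 8 at day 30, 1 to 3 from day 7 to day 30, 0 to 10 for endothelial cells and 4 to 6 for cardiomyocytes at day 3. For genotype it was 0 to 2 in hearts at day 30, 0 to 10 in endothelial cells at day 3 and 0 to 10 for their interaction; it was 0 throughout elsewhere. Over all genes the lowest and highest counts under the alternatives were 4242 and 9152 for wild-type hearts against cardiomyocytes (5867 as reported), 1430 and 3263 for wild-type hearts at day 7 (2448), 437 and 6221 at day 30 (1594), 3315 and 7021 from day 7 to day 30 (5354), 442 and 3464 for wild-type endothelial cells (1734) and 1352 and 4340 for wild-type cardiomyocytes at day 3 (2634). In Q150X they were 3689 and 8091 for hearts at day 30 (5307), 3354 and 12002 for endothelial cells (6159) and 2430 and 4486 for cardiomyocytes at day 3 (4097). For genotype they were 0 and 444 in hearts at day 30 (79), and the highest, where 0 were called as reported, were 3 in uninjured and 4 in day 7 hearts, 1 in uninjured and 10498 in day 3 endothelial cells, and 543 in uninjured and 8 in day 3 cardiomyocytes. For the interactions, also 0 as reported, they were 1 and 47 in hearts at day 7 and day 30, 8765 in endothelial cells and 219 in cardiomyocytes. Each gene had at least 214 counts in every library, and groups held 2 to 4 libraries; which of these limited the calls was not tested.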
